A study of Homo sapiens with 12 samples.

Results

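The transcripts described here are those whose level in total RNA was higher in interferon-gamma treated A375 cells than in DMSO treated cells, while their level in polysomal RNA was not. A375 is an established human melanoma cell line. The items measured are transcript clusters, each a set of array probes assigned to 1 transcribed locus, and values are log2 of the deposited intensity, so that a difference of 1 is 2-fold. A cluster was a member where its mean over the 12 arrays was at least 6, its IFNg minus DMSO difference in total RNA was at least 1 with both IFNg arrays above both DMSO arrays, and its IFNg minus DMSO difference in polysomal RNA was 0 or less. These criteria held for 211 of the 65535 clusters of the table, of which 11092 had a mean of at least 6. The DMSO and IFNg values of both fractions therefore chose the members, and their differences are given as a description.

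The series holds 6 groups of 2 arrays. There were 3 treatments: DMSO (2 h), interferon-gamma, written IFNg (24 h), and IFNg (24 h) combined with silvestrol (2 h). Each was sampled as total RNA and as polysomal RNA. IFNg and DMSO groups thus differ in hours of treatment as well as in agent, no vehicle is named for IFNg, and no group received silvestrol without IFNg, so these cannot be told apart. The labels do not say that the 2 samples of a group came from separate cultures, so p-values measure only the spread between these samples, which may be technical.

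IFNg binds a cell-surface receptor whose Janus kinases signal to the nucleus, and interferon regulatory factors are among the proteins that then turn on genes of antigen presentation and antiviral defence. Polysomes are mRNAs bound by several ribosomes at once, so polysomal RNA samples the transcripts under translation, and total RNA samples all transcripts. Silvestrol is a plant compound that inhibits eIF4A, the RNA helicase that unwinds mRNA leaders for the loading of ribosomes. In melanoma cells IFNg is known to raise antigen presentation and the checkpoint ligand CD274 (PD-L1).

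Replicate arrays correlated with r between 0.973 and 0.981 over all clusters. Over the clusters with a mean of at least 6, the median log2 intensity was 8.05 and 8.08 on the polysomal IFNg arrays and between 8.34 and 8.65 on the other 10 arrays. The median IFNg minus DMSO difference of these clusters was -0.07 in total RNA and -0.34 in polysomal RNA, and 182 of the 211 members lay at or below that -0.34. The part of these lower polysomal IFNg arrays in the members' values was not tested beyond rescaling, which took the members' polysomal median from -1.40 to -0.91 at most. Among 10 melanocyte lineage markers 3 were matched to rows of the table: MITF had a mean of 13.15, PAX3 7.01 and MLANA, under the floor of 6, 5.89. Their IFNg minus DMSO differences in total and polysomal RNA were -1.58 and -1.80 for MITF, 0.31 and -0.41 for PAX3, and -0.03 and -1.42 for MLANA. Of these, only polysomal MITF was called (limma adjusted p = 0.0164). In bulk RNA, fewer cells with a transcript and less of it per cell cannot be told apart.

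Most members carry no gene name. The platform annotation gave 1 symbol to 40 of the 211 members (19.0%), against 56.8% of the clusters with a mean of at least 6, and no symbol to 171. RefSeq lists 32 of the 40 as protein coding, 3 as pseudogenes, 2 as miRNA genes, and 1 each as a long non-coding RNA, a Y RNA and the RNA of RNase MRP. Members without a symbol had a median mean level of 7.62, against 9.08 for those with 1. Chromosome 1 held 50 members (23.7%, against 21.3% of the clusters with a mean of at least 6), chromosome 6 held 32 (15.2% against 11.9%) and chromosome 4 held 10 (4.74% against 8.36%).

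The upstream sequences show the letters of an interferon regulatory factor site as found before some listed IFNg-induced genes. The lines that follow give the 250 bases before the RefSeq gene start (GRCh38.p14, 5′ to 3′ on the gene's strand) for 2 listed genes that are not members, with the motif in capitals. CXCL10, a chemokine that attracts T cells, lies at chr4:76023498-76023747 on the minus strand. TAP1, a subunit of the peptide transporter of antigen presentation, lies at chr6:32853705-32853954 on the minus strand, and its matches overlap and are read on the opposite strand. The last line is the mature miRNA of the member MIR548AI, hsa-miR-548ai (RefSeq, GRCh38.p14, chr6:99124624-99124645, plus strand), with its seed, bases 2 to 8, in capitals.
CXCL10: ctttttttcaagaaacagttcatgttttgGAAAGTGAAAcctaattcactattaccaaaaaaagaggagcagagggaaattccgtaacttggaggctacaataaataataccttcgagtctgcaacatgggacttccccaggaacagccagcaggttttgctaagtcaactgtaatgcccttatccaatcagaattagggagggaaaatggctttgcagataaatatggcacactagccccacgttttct
TAP1: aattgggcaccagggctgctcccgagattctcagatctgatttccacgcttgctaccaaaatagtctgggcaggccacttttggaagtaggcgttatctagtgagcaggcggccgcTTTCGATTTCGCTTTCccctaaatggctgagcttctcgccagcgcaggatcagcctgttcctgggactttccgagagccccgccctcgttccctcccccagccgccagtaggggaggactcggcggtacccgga
hsa-miR-548ai: aAAGGUAAuugcaguuuuuccc
The core letters of an interferon regulatory factor site, 2 copies of GAAA with any 2 bases between them, were searched on both strands and stood in 3.02% of 35116 RefSeq promoters of this length. They stood in 0 of the 29 members with a promoter sequence and in 12 of 35 listed interferon and antigen genes (34.3%), CXCL10 and TAP1 among them. With so few members' promoters, 0 of 29 lies near the share of all promoters and says nothing particular about the members. A match is a description of these letters only, and the windows hold nothing on sites further away.

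By the median over the 211 members, total RNA was low after DMSO and polysomal RNA was low after IFNg. The median log2 level over the members was 6.87 and 7.26 on the total RNA DMSO arrays, 8.91 and 8.63 on the total RNA IFNg arrays, and 8.58 and 8.73 on the total RNA arrays with silvestrol. In polysomal RNA it was 7.76 and 8.63 after DMSO, 6.95 and 6.43 after IFNg, and 8.49 and 8.56 after IFNg with silvestrol. Total DMSO and polysomal IFNg were the 2 lowest group means in 180 members, with polysomal IFNg lowest in 128 and total DMSO lowest in 73.

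**Figure D1:**
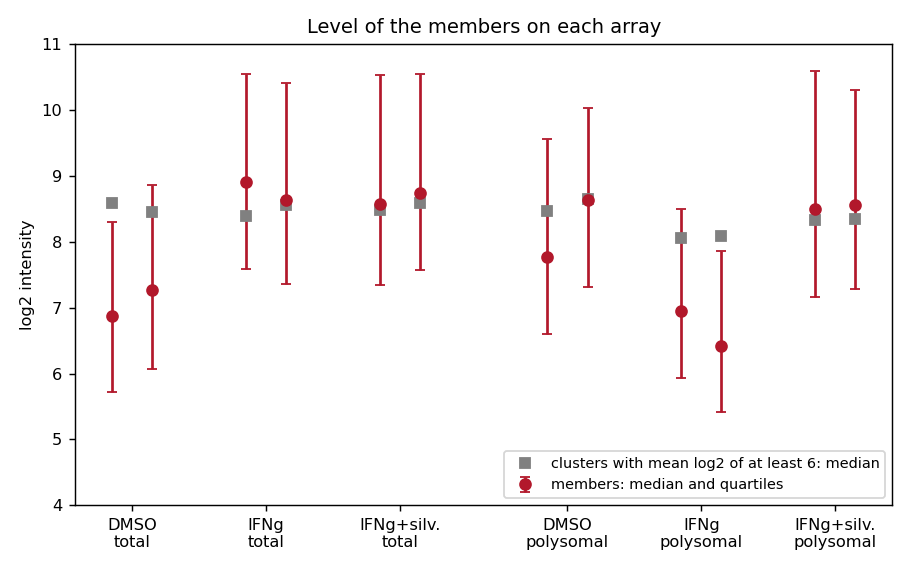
Log2 intensity (vertical axis) on each of the 12 arrays, with the median and quartiles of the 211 members in red and the median of the clusters with a mean of at least 6 as grey squares. The members' median lies at 6.87 and 7.26 for total RNA after DMSO and at 6.95 and 6.43 for polysomal RNA after IFNg, below the other 8 arrays, which lie between 7.76 and 8.91.

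Since the rule asks for a rise in total RNA and none in polysomal RNA, a low total DMSO level and a low polysomal IFNg level are both favoured by the choice itself. Members had a median IFNg minus DMSO difference of 1.51 in total RNA (quartiles 1.16 to 1.93, highest 5.59) and of -1.40 in polysomal RNA (quartiles -2.22 to -0.55, lowest -4.94). The polysomal difference was -1 or lower in 120 members (21.5% of the clusters with a mean of at least 6). In 149 members both polysomal IFNg arrays lay below both polysomal DMSO arrays (44.9% of those clusters). The polysomal median of -1.40 was -0.83 without polysomal DMSO replicate 2. After DMSO, polysomal minus total RNA had a median of 1.16 over the members, against -0.03 over the clusters with a mean of at least 6. In 151 members both polysomal DMSO arrays lay above both total DMSO arrays (22.3% of those clusters). After IFNg, polysomal minus total RNA had a median of -1.79, against -0.32. Members without a symbol had medians of 1.55 in total and -1.51 in polysomal RNA, and those with 1 symbol 1.30 and -0.66.

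**Figure D2:**
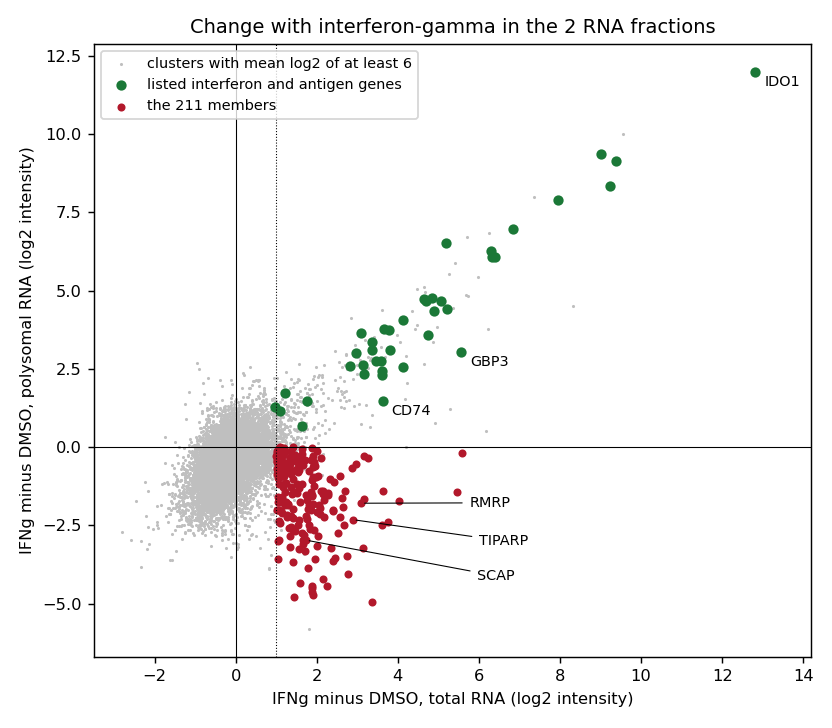
IFNg minus DMSO in polysomal RNA (vertical axis) against total RNA (horizontal axis), both as differences of log2 intensity. Grey points are clusters with a mean of at least 6, red points the 211 members, green points the listed interferon and antigen genes, and the dotted line marks the total RNA criterion of 1. The members fill the region at or below 0 in polysomal RNA by the rule, and all listed genes shown lie above 0 there.

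Of the 505 clusters with a mean of at least 6 that met the total RNA criteria, 211 (41.8%) had a polysomal difference of 0 or less and 190 had one of at least 1. Just inside and outside the limits, the lowest total RNA difference of a member was 1.002 and the next cluster had 0.99. The member nearest to the polysomal limit was MAN1C1, a Golgi mannosidase, at -0.00, and the nearest cluster beyond it was ADAR, an RNA-editing enzyme, at 0.000925. The lowest mean of a member was 6.005 and the nearest below the floor 5.99.

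With the limma model described under processing and adjusted p under 0.05, 28 members were called higher in total RNA (0.287% of all clusters) and 0 lower (0.0244%). In polysomal RNA 74 were called lower (1.93%, and 1163 of the 11092 clusters with a mean of at least 6). In the difference between both changes 76 were called lower (0.16%) and 0 higher (0.0107%). For polysomal minus total RNA, 12 were called higher (0.061%) and 0 lower (0.0565%) after DMSO, and 101 lower (1.05%) and 0 higher (0.18%) after IFNg. The rule used these contrasts, so nothing is read from their counts. Leaving out 1 array moved them. For the 28 in total RNA, dropping DMSO replicate 1 gave 7, and dropping IFNg replicate 1 or 2 gave 9 or 13. For the 74 in polysomal RNA, dropping DMSO replicate 2 gave 25 and dropping IFNg replicate 2 gave 34. For the 76, these 2 polysomal arrays gave 30 and 41, and the replicate 1 arrays of total DMSO and total IFNg gave 42 and 39. The 12 after DMSO were 1 when replicate 1 of total DMSO was dropped, 5 and 0 for polysomal DMSO replicates 1 and 2, and 3 for each total silvestrol array. They were 7 for each polysomal IFNg array and 5 for each polysomal silvestrol array. The 101 after IFNg were 47 and 41 when total replicates 1 and 2 were dropped and 28 for polysomal replicate 2.

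RMRP, the RNA of the ribonuclease MRP that takes part in ribosomal RNA maturation, had the highest total RNA difference among members with a symbol. Its total RNA levels were 9.26 and 9.27 after DMSO, 12.001 and 12.70 after IFNg and 11.22 and 11.31 after IFNg with silvestrol. Its polysomal levels were 7.06 and 7.50, 5.29 and 5.69, and 10.55 and 8.63 in the same order. Polysomal RMRP was thus lower than total RMRP in each of the 3 treatments, and with silvestrol it stood above both other polysomal groups. The IFNg minus DMSO difference was 3.09 in total and -1.79 in polysomal RNA. The DMSO and IFNg arrays chose the members. Rises over them with silvestrol, for RMRP and for the genes below, are thus not independent of the rule. In polysomal RNA with silvestrol RMRP rose by 2.31 over DMSO (SE 0.48, limma adjusted p = 0.031) and by 4.10 over IFNg alone (SE 0.48, limma adjusted p = 0.00171). The rise over DMSO was no longer called without polysomal silvestrol replicate 1 (1.35), polysomal DMSO replicate 1 (2.09) or 2 (2.53), or either total silvestrol array (2.31). Polysomal minus total RNA with silvestrol was -1.68 (SE 0.48, limma adjusted p = 0.135).

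TIPARP encodes a mono-ADP-ribosyltransferase (PARP7) that is a target gene of the aryl hydrocarbon receptor. It read 5.13 and 6.97 in total RNA after DMSO, 9.61 and 8.25 after IFNg, and 11.83 and 10.67 with silvestrol. In polysomal RNA it read 8.62 and 8.41, 6.61 and 5.78, and 10.73 and 10.19. The total RNA groups did not overlap and stood in the order DMSO, IFNg, IFNg with silvestrol, while in polysomal RNA IFNg alone was lowest. TIPARP rose by 5.20 in total RNA with silvestrol over DMSO (SE 0.59, limma adjusted p = 0.000661) and by 4.27 in polysomal RNA with silvestrol over IFNg (SE 0.59, limma adjusted p = 0.00443). The latter call was lost when replicate 2 of polysomal IFNg (3.85) or replicate 1 of polysomal silvestrol (3.998) was dropped.

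IER3, an immediate early gene induced by stress and growth factors, was the brightest of the named members. Total IER3 was 15.59 and 15.81 after DMSO, 16.84 and 16.71 after IFNg, and 18.52 and 18.38 with silvestrol. Polysomal IER3 was 15.89 and 16.87, 16.05 and 15.05, and 19.04 and 18.38. Its silvestrol arrays stood above all others in both fractions. With silvestrol it rose over DMSO by 2.76 in total RNA (SE 0.38, limma adjusted p = 0.00313) and by 2.33 in polysomal RNA (SE 0.38, limma adjusted p = 0.00893), and over IFNg by 3.16 in polysomal RNA (SE 0.38, limma adjusted p = 0.0021). The polysomal rise over DMSO was not called without polysomal DMSO replicate 1 (1.84) or polysomal silvestrol replicate 1 (2.0005).

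PDGFA, the growth factor PDGF-A, followed a like order, with total RNA at 6.93 and 6.88 after DMSO, 8.11 and 8.79 after IFNg, and 9.94 and 9.87 with silvestrol. Its polysomal levels were 7.01 and 8.53, 7.25 and 6.67, and 9.17 and 9.67, so the DMSO and IFNg arrays overlapped and the silvestrol arrays lay above them. PDGFA rose by 3.002 in total RNA over DMSO (SE 0.43, limma adjusted p = 0.00346), a call that was lost without total silvestrol replicate 1 (2.97).

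Several named members act on mRNA or chromatin. PAIP2, which binds the poly(A)-binding protein and represses translation, read 6.87 and 6.71 in total RNA after DMSO, 8.83 and 8.60 after IFNg, and 8.86 and 9.42 with silvestrol. Its polysomal levels were 7.50 and 9.18, 5.98 and 5.42, and 7.40 and 8.12. Polysomal PAIP2 after IFNg lay below every other group, and with silvestrol it lay between IFNg and the higher DMSO array. TSNAX, a partner of the nucleic acid binding protein translin, read 6.74 and 6.996, 9.095 and 7.29, and 9.001 and 8.62 in total RNA, and 8.33 and 9.35, 6.22 and 5.12, and 7.90 and 8.56 in polysomal RNA. HIST1H1C, whose current symbol is H1-2, encodes a linker histone, and its mRNA, like other replication-dependent histone mRNAs, can end in a stem-loop in place of a poly(A) tail. It read 6.16 and 5.69, 7.36 and 7.01, and 6.78 and 7.58 in total RNA, and 7.15 and 7.01, 4.61 and 5.06, and 7.77 and 7.57 in polysomal RNA. In both genes the polysomal IFNg arrays were the lowest of all 12.

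USP34, a deubiquitinase, was close to equal in both fractions with silvestrol, at 9.77 and 10.14 in total and 9.54 and 10.26 in polysomal RNA. It had read 6.87 and 7.18 in total RNA after DMSO, and 7.32 and 7.51 in polysomal RNA after IFNg. LIMK1, a kinase that phosphorylates the actin-severing protein cofilin, read 4.94 and 5.61, 6.81 and 7.36, and 7.51 and 7.33 in total RNA. In polysomal RNA it read 7.61 and 7.11, 5.598 and 4.17, and 8.21 and 7.73, with the IFNg arrays below the other polysomal arrays. SCAP, the escort protein of the sterol-regulated SREBP factors, read 7.39 and 8.74, 10.03 and 9.55, and 8.90 and 9.40 in total RNA and 11.08 and 10.59, 8.35 and 7.39, and 10.63 and 9.89 in polysomal RNA. SCAP was higher on polysomes than in total RNA after DMSO and lower after IFNg.

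NREP, the neuronal regeneration related protein, was bright in total RNA, at 10.41 and 9.66, 11.55 and 12.28, and 11.66 and 12.08. Its polysomal levels were 9.82 and 10.09, 8.64 and 8.22, and 10.70 and 10.38. NREP rose by 1.84 in total RNA with silvestrol over DMSO (SE 0.34, limma adjusted p = 0.0227), which was not called without total DMSO replicate 2 (1.46) or total silvestrol replicate 1 (2.05) or 2 (1.62). Polysomal minus total RNA with silvestrol was -1.33 (SE 0.34, limma adjusted p = 0.09).

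Other named members had smaller or less even differences. TNFRSF14, the receptor HVEM, read 6.98 and 6.83 in total RNA after DMSO and 9.0002 and 8.82 after IFNg, with polysomal levels of 7.99 and 8.27 after DMSO and 8.44 and 7.59 after IFNg that overlapped. ENO1, a glycolytic enzyme with many pseudogenes whose copies the probes may not separate, had an IFNg minus DMSO difference of 1.26 in total and -2.18 in polysomal RNA. S100A6, a calcium-binding protein, differed by 1.02 and -2.0025, with polysomal DMSO arrays at 14.31 and 16.62. For LNPEP (a membrane aminopeptidase), MRAS (a Ras-family GTPase), CSGALNACT1 (an enzyme of chondroitin sulfate synthesis), JADE2 (a chromatin-associated PHD finger protein) and PTN (the growth factor pleiotrophin) the total RNA difference lay between 1.56 and 1.93 and the polysomal between -0.58 and -0.20. GRAMD2B differed by 1.02 and -0.85, ZNF672, a zinc finger protein, by 1.36 and -0.78, and LMLN-AS1, an RNA antisense to LMLN, by 1.89 and -0.65. Whether the array reads LMLN-AS1 apart from LMLN is not given in the sources used here.

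**Figure D3:**
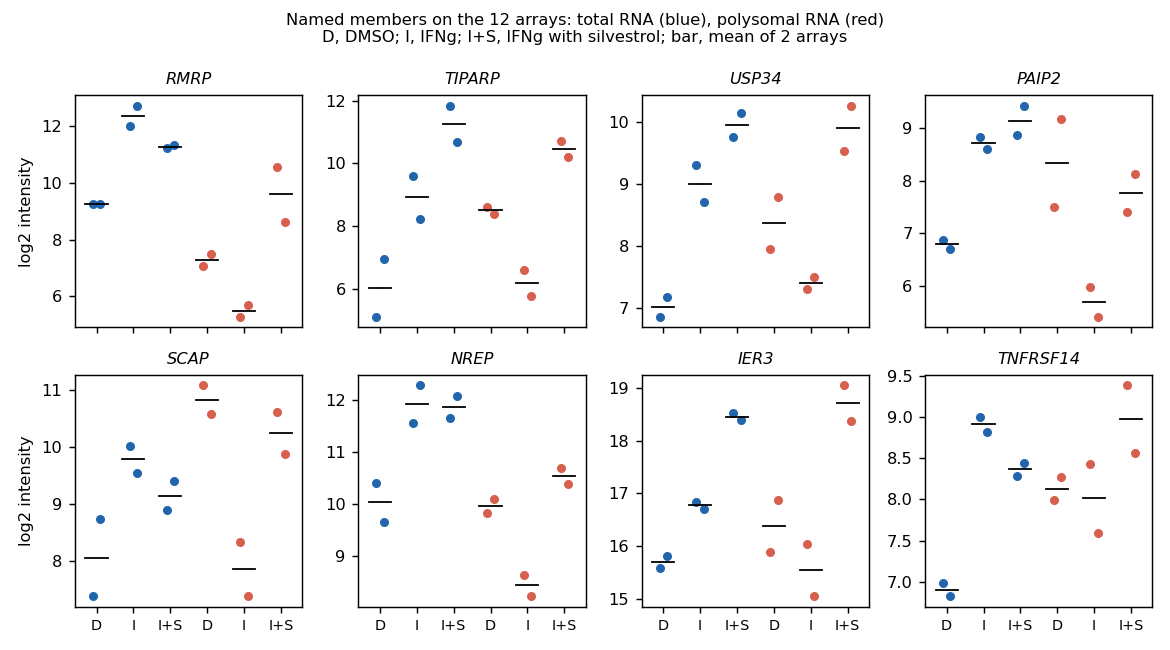
Log2 intensity (vertical axes, a scale of its own for each gene) of 8 named members by treatment, total RNA in blue and polysomal RNA in red, with a point per array and a bar at the mean of 2. In RMRP, TIPARP, USP34, PAIP2, SCAP and NREP both polysomal IFNg arrays lie below all polysomal DMSO and silvestrol arrays.

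Among members that make small or non-coding RNAs, RNY5, a Y RNA, read 8.85 and 9.67, 10.88 and 9.74, and 10.53 and 10.41 in total RNA, and between 6.53 and 9.03 in polysomal RNA. MIR548AI, whose mature miRNA is printed above, had an IFNg minus DMSO difference of 1.02 in total and -0.43 in polysomal RNA, and MIR8485 of 1.21 and -0.13. A cluster named for a miRNA gene does not separate the mature form from its precursor. RNA5SP259 (1.05 and -0.55), RNU6-480P (1.02 and -0.37) and GNG5P1 (1.24 and -0.62) are pseudogenes whose signal may include copies of the same sequence.

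The silvestrol arrays are the ones the rule did not use, except through the mean over 12 arrays. In them polysomal minus total RNA had a median of -0.18 over the members, against -0.17 over the clusters with a mean of at least 6. The quartiles were -0.74 to 0.59, against -0.64 to 0.31. Above 0 lay 90 members and below it 121, against 4406 and 6686 of these 11092 clusters. A difference of at least 1 was found in 26 members (12.3%, against 8.21%) and of -1 or lower in 33 (15.6%, against 12.5%). Both polysomal arrays lay above both total arrays in 70 members (24% of clusters with a mean of at least 6) and below in 73 (39.5%).

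With limma, 3 members were called higher on polysomes with silvestrol (0.497% of all clusters) and 3 lower (0.65%). That is 1.42% of the members in each direction, against 2.41% and 3.25% of the clusters with a mean of at least 6. At an unadjusted p under 0.05 there were 27 (5.71% of all clusters) and 40 (6.02%). With only clusters with a mean of at least 6 tested, there were 22 and 37, against 1189 and 1941 of the 11092 clusters. The members' shares were close to those of these clusters. The lower calls, all without a symbol and named after their values were seen, were TC0900007947.hg.1 at -3.43 (SE 0.54, limma adjusted p = 0.0132), TC0600007342.hg.1 at -2.79 and TC0600011267.hg.1 at -2.57. The higher calls were TC0300008350.hg.1 at 1.91 (limma adjusted p = 0.0221), TC0600007281.hg.1 at 1.75 and TC0300006637.hg.1 at 1.65. Both counts became 0 without total silvestrol replicate 1 or 2 or polysomal silvestrol replicate 1, and 1 and 2 without polysomal silvestrol replicate 2. They became 5 and 5 without either total IFNg array, 4 and 5 without either total DMSO array, and 3 and 6 without either polysomal DMSO array.

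**Figure D4:**
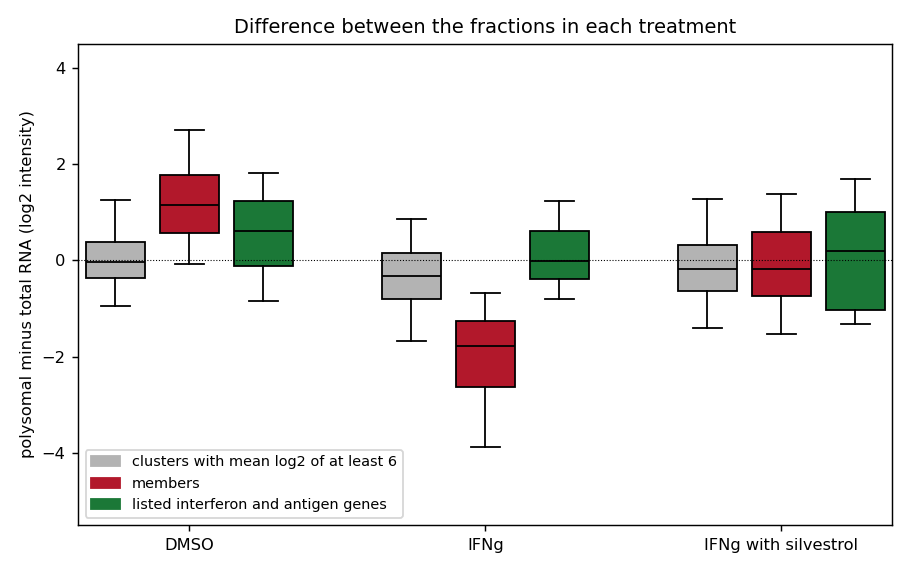
Polysomal minus total RNA, as a difference of log2 group means, after each treatment for the members (red), the clusters with a mean of at least 6 (grey) and the listed interferon and antigen genes (green). Boxes span the quartiles with a line at the median, and whiskers reach the 5th and 95th percentile. The members' median is 1.16 after DMSO, -1.79 after IFNg and -0.18 with silvestrol, against -0.03, -0.32 and -0.17 for the clusters with a mean of at least 6.

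With silvestrol the members' median total RNA level lay close to that after IFNg alone. IFNg with silvestrol minus DMSO had a median of 1.59 in total RNA, against -0.05 over the clusters with a mean of at least 6. It was above 0 in 210 of 211 members and in 5116 of these 11092 clusters. Both silvestrol arrays lay above both DMSO arrays in 192 members (23.3%) and below in 0 (27.5%). Limma called 58 members higher (0.534% of all clusters) and 0 lower (0.179%), with 169 (4.1%) and 0 (3.79%) at an unadjusted p under 0.05. The adjusted calls are 27.5% and 0% of the members, against 2.67% and 0.983% of the clusters with a mean of at least 6. The DMSO arrays are those that chose the members, and the rule selects low DMSO values, so these counts are not independent of the rule. Leaving out total DMSO replicate 1 turned the 58 into 25, and the count was 18 without total silvestrol replicate 1 and 20 without replicate 2. Of the named members, TIPARP, USP34 (2.93, SE 0.35, limma adjusted p = 0.00096), PAIP2 (2.35, SE 0.46, limma adjusted p = 0.0325), LMLN-AS1 (1.59), NREP, LIMK1 (2.15), PDGFA, ZNF672 (2.29) and IER3 were called. The calls of PAIP2 (2.07 to 2.63), LIMK1 (1.81 to 2.48) and LMLN-AS1 (1.39 to 1.80) were lost without any 1 of the total DMSO or total silvestrol arrays. That of ZNF672 was lost without total DMSO replicate 2 (1.98) or total silvestrol replicate 1 (2.16) or 2 (2.42).

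IFNg with silvestrol minus IFNg in total RNA shares the IFNg arrays with the rule. Its median was -0.01, against 0.02, and lay between -0.12 and 0.12 when 1 array was left out. Limma called 1 member higher (0.0412% of all clusters) and 0 lower (0.0153%), with 15 (2.51%) and 9 (2.31%) at an unadjusted p under 0.05. The adjusted calls are 0.474% and 0% of the members, against 0.225% and 0.0902% of the clusters with a mean of at least 6. The 1 member called, TC0500012177.hg.1, has no symbol and was singled out after its values were seen. Its total RNA read 9.24 and 8.74 after DMSO, 12.39 and 12.13 after IFNg, and 14.50 and 14.59 with silvestrol, a rise of 2.28 over IFNg (SE 0.32, limma adjusted p = 0.0284). Its polysomal levels were 10.07 and 10.16, 10.26 and 9.26, and 14.31 and 14.13. In the table it stands 2 rows before ETF1, the translation termination factor eRF1. The call was lost without any array of total IFNg, total silvestrol or polysomal DMSO.

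On polysomes the members were higher with silvestrol than with IFNg alone. The median was 1.84, against 0.19. Limma called 88 higher (1.09% of all clusters) and 0 lower (0.301%), with 158 (7.3%) and 3 (4.61%) at an unadjusted p under 0.05. The adjusted calls are 41.7% and 0% of the members, against 5.43% and 1.46% of the clusters with a mean of at least 6. The contrast shares with the rule the polysomal IFNg arrays, for which low values were selected. The median, counts and calls of this contrast are therefore not independent of the rule. The 88 became 40 without polysomal IFNg replicate 2 and 38 without polysomal silvestrol replicate 1. Of the named members, 12 were called, among them LIMK1 at 3.09 (SE 0.42, limma adjusted p = 0.0041), HIST1H1C at 2.83 (SE 0.31, limma adjusted p = 0.00136), TSNAX at 2.57, SCAP at 2.39, NREP at 2.11 and PAIP2 at 2.07. Of 22 alternatives each, HIST1H1C stayed called in 22, LIMK1 in 21, NREP in 20, SCAP in 16, TSNAX in 13 and PAIP2 in 8. PAIP2 was lost without any array except the polysomal DMSO ones (1.70 to 2.43), and TSNAX without any polysomal IFNg or silvestrol array or either total silvestrol array (2.02 to 3.11). Omitting polysomal silvestrol replicate 1 ended the calls of LIMK1 (2.84), NREP (1.95) and SCAP (2.02), and omitting polysomal IFNg replicate 2 those of NREP (1.90) and SCAP (1.91).

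IFNg with silvestrol minus DMSO in polysomal RNA, which shares the polysomal DMSO arrays with the rule, had a median of 0.36, against -0.15. Above 0 lay 142 members and below it 69, against 4517 and 6575 of the 11092 clusters with a mean of at least 6. The members' median was 0.10 and 0.66 without polysomal DMSO replicate 1 and 2. Both silvestrol arrays lay above both DMSO arrays in 95 members (20.7%) and below in 28 (34.9%). Limma called 10 higher (0.555% of all clusters) and 0 lower (0.914%), with 55 (5.32%) and 8 (5.6%) at an unadjusted p under 0.05. The adjusted calls are 4.74% and 0% of the members, against 2.58% and 5.02% of the clusters with a mean of at least 6. The 10 hold RMRP, IER3 and 8 members without a symbol. They became 1, with 2 lower, without polysomal DMSO replicate 1, and 2 and 6 without polysomal silvestrol replicate 1 and 2. The polysomal change from DMSO minus the total RNA change had a median of -1.18, against -0.16. Limma called 0 members in either direction (0% of all clusters), with 0 higher (2.59%) and 92 lower (2.81%) at an unadjusted p under 0.05. This contrast uses the DMSO arrays of both fractions, which chose the members. The rule favours low total and high polysomal DMSO values, so the median and counts of this contrast are not independent of it. Without polysomal DMSO replicate 1 limma called 2 lower.

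Members chosen on 1 replicate number can be measured on the other. The criteria applied to the replicate 1 arrays took 295 clusters, which on the replicate 2 arrays had a median IFNg minus DMSO difference of 0.37 in total and -1.17 in polysomal RNA, against -0.00 and -0.40 over all clusters past the floor. Of the 295, 24.7% met both criteria again, against 4.16% of all. Chosen on replicate 2, 500 clusters had -0.10 and -0.37 on replicate 1, against -0.14 and -0.30, and 15.4% met both, against 2.65%. Without rescaling, their median thus showed no rise in total RNA on replicate 1. After each array was centred on the clusters with a mean of at least 6, the sign of that total RNA median turned: 279 clusters chosen on replicate 2 had 0.20 in total and -0.09 in polysomal RNA on replicate 1, against 0.06 and 0.11 over all. Centred and chosen on replicate 1, 255 clusters had 0.23 and -0.86 on replicate 2, against -0.10 and 0.17.

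Within 10 rows of another member lay 32 members (15.2%), against 7.32% of the clusters with a mean of at least 6 that lay so near a member. Most members had no other member so near. Among the members 2 pairs agreed within 0.3 on every array, TC0100015706.hg.1 with TC0100015710.hg.1 and TC0200008829.hg.1 with TC0200008839.hg.1, the latter identical. In a window of 120 rows on each side of the 3 clusters named HIST1 on chromosome 6, chosen after the values were seen, 10 of 127 clusters with a mean of at least 6 were members (7.87%, against 1.90% of all such clusters), so most of the window's clusters were not. HIST1H1C is the only one with a symbol. These 10 had medians of 1.83 in total and -3.13 in polysomal RNA, while the window's clusters had 0.00 and -0.72. With silvestrol, the polysomal minus total RNA of these 10 had a median of 1.41 and was above 0 in 8 of 10. Over the clusters with a mean of at least 6 the median was -0.17, with 4406 of 11092 above 0. The share over the window's clusters was not taken.

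The highest and lowest members have no symbol and were singled out after their values were seen. TC0600011518.hg.1 had the highest total RNA difference, 5.59, and its row lies between those of the class II gene HLA-DPA1 and the class II pseudogene HLA-DPA2. Its total RNA read 6.502 and 8.81 after DMSO, 14.33 and 12.15 after IFNg, and 13.99 and 14.27 with silvestrol. Its polysomal levels were 10.07 and 10.02, 12.09 and 7.64, and 15.40 and 15.28. The polysomal IFNg arrays lay on either side of the DMSO arrays. TC0700012693.hg.1, at 5.47 in total RNA, read 9.14 and 9.05 after DMSO and 14.54 and 14.58 after IFNg in total RNA, with polysomal levels of 11.18 and 13.94, and 11.21 and 11.03.

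The lowest polysomal differences were those of TC0700007850.hg.1 at -4.94 and TC0100015705.hg.1 at -4.80, the latter next to the row of the histone pseudogene H2BC20P. TC0100015705.hg.1 read 11.97 and 11.90 on polysomes after DMSO, 7.996 and 6.28 after IFNg, and 14.24 and 13.15 with silvestrol. Its total RNA read 10.19 and 9.98, 12.05 and 11.01, and 12.18 and 12.18, so polysomal RNA lay above total RNA with DMSO and with silvestrol and below it with IFNg.

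None of the matched interferon and antigen genes was a member, each taken by its brightest cluster. Listed genes that were not matched could not be looked for among the members without a symbol. Of 35 interferon targets 23 were matched, and 19 rose in total and 18 in polysomal RNA (limma), with 0 falling in either and medians of 3.65 and 3.04. IDO1, which degrades tryptophan, had 12.82 in total and 11.98 in polysomal RNA, the interferon regulatory factor IRF1 9.38 and 9.13, and CXCL10 9.24 and 8.33. Of 23 antigen processing genes 18 were matched, 18 rose in total and 17 in polysomal RNA, with medians of 4.13 and 3.61. The exception in polysomal RNA was CD74, the class II invariant chain, at 1.48 (limma adjusted p = 0.286) against 3.62 in total RNA. Of 7 receptor and signalling genes 3 were matched and none was called. Of 6 initiation factors EIF4E and EIF4G1 were matched, and EIF4E, the cap-binding protein, fell on polysomes by 1.94 (limma adjusted p = 0.0167). Its polysomal levels were 12.42 and 13.44 after DMSO and 11.04 and 10.92 after IFNg. In this contrast limma called 1163 of the 11092 clusters with a mean of at least 6 lower, and their median was -0.34. Whether the EIF4E value stands apart from these lower polysomal IFNg arrays was not tested.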

How the data were processed

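RNA of A375 cells was measured on 12 Affymetrix arrays, grouped by the sample titles, per the labels. The deposited table holds 1 linear intensity per transcript cluster and array. Which software and normalization the authors used for these intensity values is not given in the sources used here, and no detection calls accompany them. The intensities run from 3.91 to 960000, so folds should not be set against another platform's. The table's 65535 clusters cover chromosomes 1 to 8 and part of 9, and others were not analysed here.

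Log2 of the deposited intensities was taken with no pseudocount. Limma 3.58.1 in R 4.3.3 fitted 1 mean per group to all 12 arrays (6 residual and 6.72 prior degrees of freedom), with Benjamini-Hochberg adjustment over all 65535 clusters. The median standard error of a change was 0.31 over all clusters and 0.44 over the members, and the number of arrays limits the precision. Symbols came from GEO's platform annotation, which can be old: 16130 clusters had 1 symbol, 419 several and 48986 none, and none was named from several. Named members were the 15 with the highest total RNA and the 15 with the lowest polysomal difference among those with 1 symbol, 22 in all. The members and lists were chosen with earlier results of these data known. On simulated data for polysomal minus total RNA with silvestrol, 48% of log2 differences of 2 and 88% of 3 were called. For the difference of the silvestrol minus DMSO changes between the fractions these shares were 10% and 38%. Each share rests on 50 clusters drawn from those with a mean of at least 6. The members had a higher median standard error than all clusters, so the shares need not hold for them. Figures were drawn with matplotlib 3.10.9. Alternatives were other scalings, floors, pseudocounts, fits and leaving out each array. A further promoter motif that was searched is not reported here.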

Additional observations from a re-analysis of the deposited data

Results flagged for a closer look

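Of the 22 named members, themselves picked as extremes of the rule's values, 10 were called where the IFNg minus DMSO change in polysomal RNA was set against that in total RNA by limma's interaction contrast at adjusted p under 0.05, which called 0.16% of all clusters lower. The members were chosen by this difference, so the values are a description and no finding. The polysomal minus total change was -4.88 for RMRP, -5.20 for TIPARP, -2.96 for USP34, -4.57 for PAIP2, -2.54 for LMLN-AS1, -3.41 for NREP, -4.28 for LIMK1, -4.69 for SCAP, -4.50 for TSNAX and -3.5002 for HIST1H1C. Among the matched interferon genes, whose brightest clusters were not members, the same contrast was called for GBP3, a guanylate-binding protein. Its value was -2.52 (limma adjusted p = 0.0317), with a rise of 5.56 in total and of 3.04 in polysomal RNA.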

How the results depend on the processing

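The number of members was 107 with a total RNA difference of at least 1.5 and lay between 191 and 384 when 1 array was left out, with 384 on omitting replicate 2 of total DMSO and 350 on omitting replicate 1 of total IFNg. Other alternatives gave counts within 1.5 times of 211. They did not all hold the same clusters. Of the 211, 161 were among the 169 with centring and 182 among the 203 with 16 added before log2. With quantile normalization over all arrays 172 were among the 174. Each array of DMSO or IFNg left out also dropped some of the 211. For polysomal minus total RNA with silvestrol, the 3 higher and 3 lower calls were 9 and 12 when only clusters with a mean of at least 6 were tested and 0 and 0 with only the arrays compared, 1 higher with an intensity trend, 6 lower with quantile normalization within fractions and 6 higher when members were chosen anew after centring. Leaving out 1 array gave 0 to 5 and 0 to 6. The median of -0.18 was -0.0252 with quantile normalization, 0.00857 with centring and 0.067 with members chosen anew, and -0.18 to 0.00 (9.16e-05) with 1 array left out. For IFNg with silvestrol minus DMSO in total RNA, the 58 calls were 37 with 16 added before log2 and 18 to 67 with 1 array left out. In polysomal RNA the 10 higher calls were 17 and 18 with quantile normalization over all arrays and within fractions, 20 with centring, 25 among clusters with a mean of at least 6, 6 with 16 added, 16 with members chosen anew, and 1 to 12 with 1 array left out. The 0 lower became 2 among clusters with a mean of at least 6 and 0 to 2 with 1 array left out. For silvestrol minus IFNg in total RNA the 1 higher call was 0 with 16 added, with the trend, with only the arrays compared and with members chosen anew, and 0 to 1 with 1 array left out. The 0 lower became 1 among clusters with a mean of at least 6. In polysomal RNA the 88 higher calls were 38 to 94 with 1 array left out, and the 0 lower were 2 and 1 with quantile normalization, 1 with centring, 1 among clusters with a mean of at least 6, and 0 to 1 with 1 array left out. The difference between fractions of the silvestrol minus DMSO changes had 0 to 2 lower calls with 1 array left out. The cause of these shifts was not tested. The median of -0.18 thus turned above 0 under 3 of these alternatives, and the total RNA median of clusters chosen on replicate 2 turned from -0.10 to 0.20 with centring. None of the 23 called changes of named members turned sign, and the other calls were compared by count only. Among the values that chose the members, the polysomal median of -1.40 was -0.91 with centring, -1.02 with quantile normalization over all arrays and -1.01 within fractions, and the total RNA median of 1.51 lay between 1.35 with 16 added and 1.72 without total DMSO replicate 2.

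With the replicate number as a block, 3 members were called higher and 4 lower for polysomal minus total RNA with silvestrol, 58 higher for total RNA over DMSO, 13 for polysomal RNA over DMSO and 90 for polysomal RNA over IFNg. Deviations of arrays with the same number correlated between -0.163 and 0.515 from group to group, so the numbers were not taken to pair the samples. Of 23 called changes of named members in 506 refits, 432 were kept, 74 lost and 0 reversed.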
